A study of Mus musculus with 4 samples.

Results

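The 56 genes described here encode the metalloproteases of the ADAM, ADAMTS and MMP families, their TIMP inhibitors and the procollagen C-proteinase enhancers, 25 Adam, 7 Adamts, 18 Mmp, 4 Timp and 2 Pcolce genes of 12393 genes measured. Members were taken by name from the array annotation, as probe sets with a single symbol of these families, and each gene was represented by its probe set with the highest mean log2 signal over the 4 arrays. They hold 86 of the 22690 probe sets, and 20 of the 56 have more than 1. Expression was measured on Affymetrix mouse arrays with RNA of living back skin cells sorted for GFP, from mice at postnatal day 49. All mice were K14-GFP-actin, a transgene under the promoter of keratin 14, the keratin of basal epidermal cells, and both sorts took GFP-expressing cells. The total group, 2 arrays, took these cells without a further marker. The bulge group, 2 arrays, took the α6high CD34high ones among them, the surface phenotype of basal bulge cells, which include hair follicle stem cells. No label says that bulge cells were removed from the total sort. The cell type label of all 4 arrays names bulge stem cells, so the groups follow the titles and sort gates. The labels do not tie a replicate to an animal, a pool or a day, and every p-value here rests on a spread that may be technical.

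MMPs are secreted or membrane-bound zinc proteases that cleave collagens, laminins and other matrix proteins, and most are made as inactive proenzymes. ADAMs are membrane proteases that release the outer parts of surface proteins such as Notch receptors and EGF family ligands, although several ADAMs of the testis lack protease activity. ADAMTS proteases are secreted and cut proteoglycans and procollagens, TIMPs block the active site of these enzymes, and procollagen C-proteinase enhancers speed the removal of the C-terminal propeptide of fibrillar procollagens by BMP1 and its relatives. In the resting follicle, the bulge cells lie on a basement membrane that these enzymes can remodel.

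Cd34, which encodes one of the sorting markers, had signals of 844 and 1144 in the total sort and 15697 and 14034 in the bulge sort. All 12 bulge markers examined, Krt15 and Postn the brightest, were higher in the bulge group without overlap, against 18% of all genes. Cd34 is among the 12, and because cells were sorted on its product it is no independent check of the sort. Itga6, which encodes α6 integrin, was lower in the bulge group without overlap, at 5642 and 3491 in the total sort against 3312 and 1693. The basal keratins Krt5 and Krt14 differed by 0.05 and -0.30 on the log2 scale and the suprabasal Krt10 and Lor by -0.47 and 0.69, all with overlap. Of 8 basal keratinocyte markers, 3 were higher and 1 lower without overlap, and of 8 measured suprabasal markers 2 were higher and 2 lower. That is 50% of each list, against 38.5% of all genes. Of 7 infundibulum and isthmus markers, 6, led by Krt79 and Defb6, were lower without overlap, against 20.5% of all genes. At an adjusted p under 0.05, limma with an intensity trend called 6 of the 12 bulge markers higher and 0 basal keratinocyte markers. It called 1 suprabasal marker lower and 1 infundibulum and isthmus marker lower. Over all genes it called 0.557% higher and 0.524% lower. Array medians lay between 124 and 145, and the number of arrays limits the precision.

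Most of the 56 genes gave no signal above background. The background level, a signal of 150.0 or 7.23 on the log2 scale, is the 95th percentile over 67 olfactory, vomeronasal and taste receptor genes. Of the 56, 34 were below it on all 4 arrays, 10 were above it on all 4, and 15 were above it on both arrays of at least 1 group. Over all genes, 4604 of 12393 were below it on every array and 6820 were above it on both arrays of a group. The median log2 difference, bulge minus total, was -0.09 over the 56 genes and -0.02 over all genes, and the median size of a difference was 0.44 against 0.40. By family the medians were -0.09 for Adam, -0.05 for Adamts, -0.27 for Mmp, 0.22 for Timp and 2.67 for the 2 Pcolce genes.

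**Figure D1:**
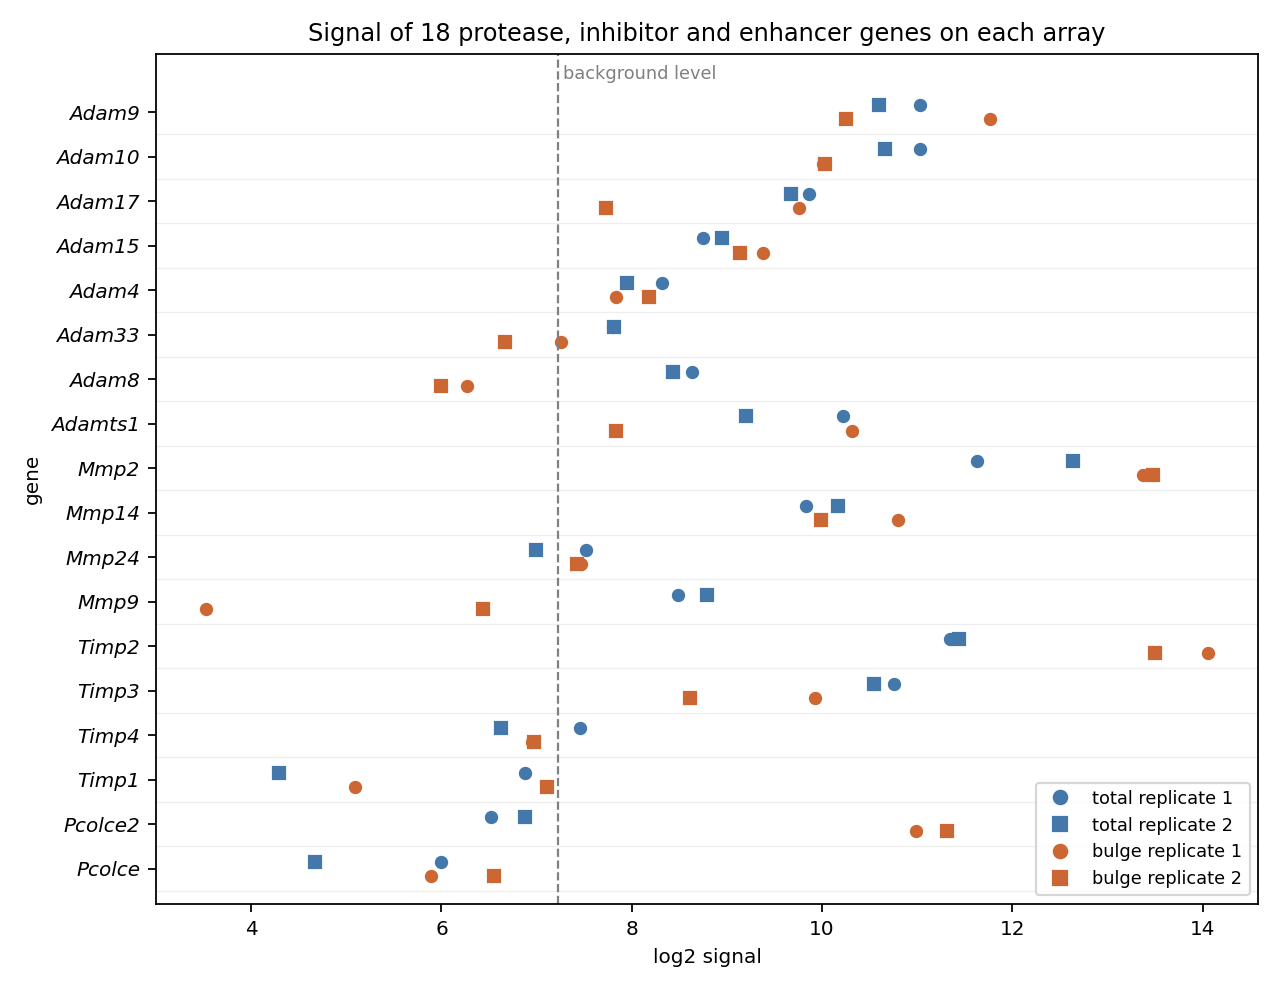
Log2 signal (x axis) on each array for the 18 genes that were above background on both arrays of a group or belong to the Timp and Pcolce families (y axis); circles are replicate 1 and squares replicate 2, blue for total and orange for bulge, and the dashed line marks the background level of 7.23. Both bulge arrays lie to the right of both total arrays for Pcolce2, Timp2, Mmp2 and Adam15, and to the left for Adam8, Adam10, Adam33, Mmp9 and Timp3.

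The test was limma with Benjamini-Hochberg adjustment over all 12393 genes, which called none of them at an adjusted p of 0.05 (0%), members included. At an unadjusted p under 0.05 it had 1297 genes, 10.5%, and among the 56 there were 6 higher, against 5.18% of all genes, and 4 lower, against 5.29%. With a variance prior that follows intensity, the trended fit, 134 genes passed (1.08% of those tested, 0.557% higher and 0.524% lower). Among the 56 it called 1 higher, Pcolce2, and 0 lower. Leaving out 1 array leaves 1 group with a single array, assumed to vary like the other group, so the spread comes from the remaining pair alone, and the bulge pair differed more (SD of replicate differences 0.917 against 0.553 for the total pair). The trended fit called 0 genes without either total array, and 171 higher and 217 lower or 153 higher and 197 lower without a bulge array. A filter that kept genes with a group mean above background called 3.06% of 7249 genes, and among members Pcolce2, Timp2 and Mmp11 higher and Adam8 lower. Of these, Pcolce2, Mmp11 and Adam8 passed that filter only through the group where they were high, so their calls under it are no support. Below, rose and fell refer to the trended fit. Both bulge arrays lay above both total arrays for 8 members and below them for 11, against 18% and 20.5% of all genes, together 33.9% of members and 38.5% of all genes. An exact permutation test of 2 arrays against 2 cannot give a two-sided p below 0.333 and was not used.

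**Figure D2:**
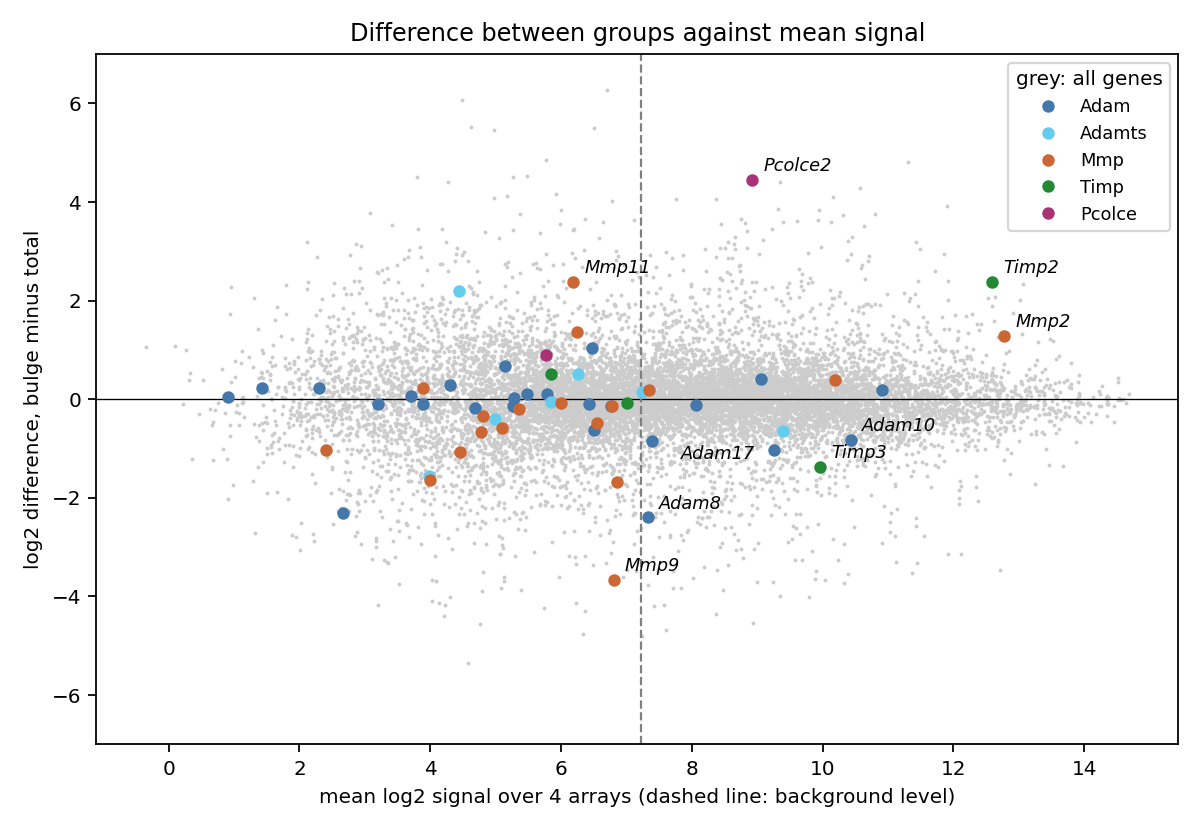
Log2 difference, bulge minus total (y axis), against the mean log2 signal over 4 arrays (x axis), for all 12393 genes in grey and the 56 members coloured by family, with the background level dashed. Pcolce2 at 4.45 and Timp2 at 2.38 are the largest positive differences among members right of the line, Adam8 at -2.40 is the largest negative one, and most members lie left of it.

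Printed here are the 100 bases before the annotated start of 2 genes higher in the bulge group (Pcolce2, Timp2), of Timp3, whose signal went the other way, and of 4 secreted MMP genes at or near background, all from RefSeq on GRCm38.p6 and read 5′ to 3′ along the gene. Capitals mark matches to the AP-1 site TGACTCA, the TATA box TATAAA or the GC box GGGCGG on either strand.
Pcolce2, chr9:95637528-95637627, plus strand: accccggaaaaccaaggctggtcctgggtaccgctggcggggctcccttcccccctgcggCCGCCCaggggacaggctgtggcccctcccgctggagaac
Timp2, chr11:118355412-118355511, minus strand: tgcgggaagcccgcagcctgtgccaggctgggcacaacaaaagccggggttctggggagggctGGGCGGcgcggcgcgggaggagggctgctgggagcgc
Timp3, chr10:86300312-86300411, plus strand: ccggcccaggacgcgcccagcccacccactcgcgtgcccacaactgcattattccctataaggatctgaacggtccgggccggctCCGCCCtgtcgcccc
Mmp3, chr9:7445722-7445821, plus strand: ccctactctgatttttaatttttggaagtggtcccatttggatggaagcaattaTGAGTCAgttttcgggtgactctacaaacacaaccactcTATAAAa
Mmp10, chr9:7502242-7502341, plus strand: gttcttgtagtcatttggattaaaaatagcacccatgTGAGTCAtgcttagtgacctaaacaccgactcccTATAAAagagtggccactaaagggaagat
Mmp13, chr9:7272414-7272513, plus strand: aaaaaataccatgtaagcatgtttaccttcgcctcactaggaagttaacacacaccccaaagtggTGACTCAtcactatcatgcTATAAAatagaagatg
Mmp1a, chr9:7464041-7464140, plus strand: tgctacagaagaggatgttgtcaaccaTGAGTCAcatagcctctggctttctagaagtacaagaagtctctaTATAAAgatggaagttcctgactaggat
Each of the first 3 holds a GC box and neither of the other motifs, and each of the 4 Mmp promoters holds an AP-1 site upstream of a TATA box. A match is a description of the letters and not of a factor bound there. Promoter windows were found for 32 of the 56 genes. Over the 250 bases before the start, TGACTCA or its reverse complement TGAGTCA occurred in 8 of 37 member windows (21.6%) and 4.46% of all 32851 windows. The TATA box or its reverse complement occurred in 8 member windows (21.6%) and 12.4% of all, and the GC box or its reverse complement in 13 (35.1%) and 32.7% of all. No printed match overlaps another.

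The AP-1 and TATA letters lay mainly in a run of neighbouring genes on chromosome 9. This run of 10 protein-coding genes, Mmp13, Mmp12, Mmp1b, Mmp3, Mmp1a, Mmp10, Mmp8, Mmp27, Mmp20 and Mmp7 in order, includes 9 of the 18 Mmp members. Of these 9, 7 held an AP-1 site, 7 held a TATA box and 0 held a GC box. Mmp8, without any of these motifs, Mmp12, without a TATA box, and Mmp20, without an AP-1 site, were not printed above. The printed Mmp promoters therefore show a more uniform pattern than the run as a whole. Of the 23 other member genes with a window, 1 held an AP-1 site (Adam19), 1 a TATA box (Adamts1) and 13 a GC box. The same 9 genes, which include the interstitial collagenases, the stromelysins Mmp3 and Mmp10, matrilysin (Mmp7), the macrophage elastase Mmp12 and the enamel protease Mmp20, were at background in both groups, apart from 1 array for Mmp3, and the 8 without Mmp3 had signals from 1.81 to 66.9. Mmp3 was above background on 1 array, with signals of 333 and 127 in the total sort and 89.6 and 46.6 in the bulge sort. Its difference was -1.67 ± 0.63 (SE, 95% interval -3.28 to -0.06), with a limma adjusted p of 0.458. Its fold has no bound, because total replicate 2 was below background too. Mmp13, collagenase 3, had 29.9 and 26.6 against 11.0 and 7.58, too dim on every array for a fold.

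Pcolce2, a procollagen C-proteinase enhancer, rose in the bulge group. Its signals were 91.8 and 118 in the total sort, both below background, and 2028 and 2547 on the bulge arrays. The rise is bounded at 15.2-fold or more. The fitted log2 difference was 4.45 ± 0.39 (SE, 95% interval 3.45 to 5.45), with a limma adjusted p of 0.0729 without the intensity trend. With the trend the SE was 0.35, the 95% interval 3.60 to 5.30 and the limma adjusted p 0.0297. Without total replicate 1 the trended adjusted p was 0.106 and without total replicate 2 it was 0.0963, with the spread taken from the bulge pair alone. Without bulge replicate 1 it was 0.00980 and without bulge replicate 2 it was 0.00708, with the spread from the total pair. The difference was 4.27 to 4.63 in these 4 fits. The gene has a single probe set. In bulk samples such as these, fewer cells of a type and less RNA per cell cannot be told apart. Pcolce, the other enhancer, was below background on all 4 arrays, with 63.7 and 25.4 against 59.4 and 93.8 and overlapping groups. Its second probe set, also below background on all 4 arrays, had 22.2 and 28.5 against 65.7 and 51.7, without overlap.

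Bmp1, the procollagen C-proteinase itself, had 226 and 311 against 255 and 189, with overlapping groups and an interval from -1.32 to 0.78 around -0.27, and its relatives Tll1 and Tll2 were below background on all 4 arrays. Of 26 measured fibrillar procollagens and collagen maturation genes, 1 rose, 0 fell and the other 25 were not called by the trended fit. Over all genes that fit called 0.557% higher and 0.524% lower. In the list 10 were higher and 2 lower without overlap, against 18% and 20.5% of all genes, and its median difference was 0.35. Col5a2, a chain of collagen V, was the one that rose, from 188 and 177 to 2761 and 1421 (10.9-fold, trended adjusted p of 0.0337). Col1a2, a collagen I chain, had 343 and 286 against 3852 and 1541, with a difference of 2.96 that did not pass (trended adjusted p of 0.0629). Ppib, a prolyl isomerase that folds procollagen, Serpinh1, the collagen chaperone, and Crtap, part of the prolyl 3-hydroxylation complex, had differences of 0.39, 0.54 and 0.28.

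Timp2, which inhibits MMPs and also helps to activate MMP2 at the cell surface, was higher in the bulge group on every probe set. Its signals were 2606 and 2789 in the total sort and 17088 and 11587 in the bulge sort. That is a 5.22-fold difference, 2.38 ± 0.41 on the log2 scale (SE, 95% interval 1.36 to 3.41), with a limma adjusted p of 0.110, or 0.0567 with the intensity trend, neither past the threshold. Of the other 5 probe sets, 2 were above background on all 4 arrays and gave log2 differences of 2.90 and 2.34. Another had 34.2 and 211 against 2482 and 1497, with total replicate 1 below background, and the other 2 were below background on all 4 arrays. All 6 had both bulge arrays above both total arrays.

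Timp3, a TIMP that binds the extracellular matrix and also inhibits ADAM17, was lower. Its signals were 1731 and 1497 in the total sort and 976 and 391 in the bulge sort, without overlap. The difference was -1.38 ± 0.55 (SE, 95% interval -2.78 to 0.02), with a limma adjusted p of 0.486. Without bulge replicate 2 it was -0.72 and without bulge replicate 1 it was -2.04. Its other probe set above background on all 4 arrays gave -1.30, and the 2 below background on every array gave 0.09 and -1.80. Timp4 had 176 and 99.1 against 124 and 125 and Timp1 117 and 19.6 against 34.2 and 138, with overlapping groups and too little signal for a fold.

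Mmp2, gelatinase A, was higher in the bulge group. It gave 3174 and 6360 in the total sort and 10597 and 11413 in the bulge sort, so the groups did not overlap, but on the log2 scale the total arrays lay further from each other than total replicate 2 lay from either bulge array. The difference was 1.29 ± 0.48 (SE, 95% interval 0.07 to 2.51), 2.45-fold, with a limma adjusted p of 0.442, and the other Mmp2 probe set also gave 1.29. Mmp14, the membrane protease that activates MMP2 together with TIMP2, had 912 and 1148 in the total sort and 1779 and 1016 in the bulge sort. The groups overlapped, and the interval of its difference of 0.39 ran from -0.76 to 1.54. Its other probe set was below background on all 4 arrays and gave -1.12. Mmp24, another membrane-type MMP, had 183 and 127 against 177 and 172, with overlapping groups.

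**Figure D3:**
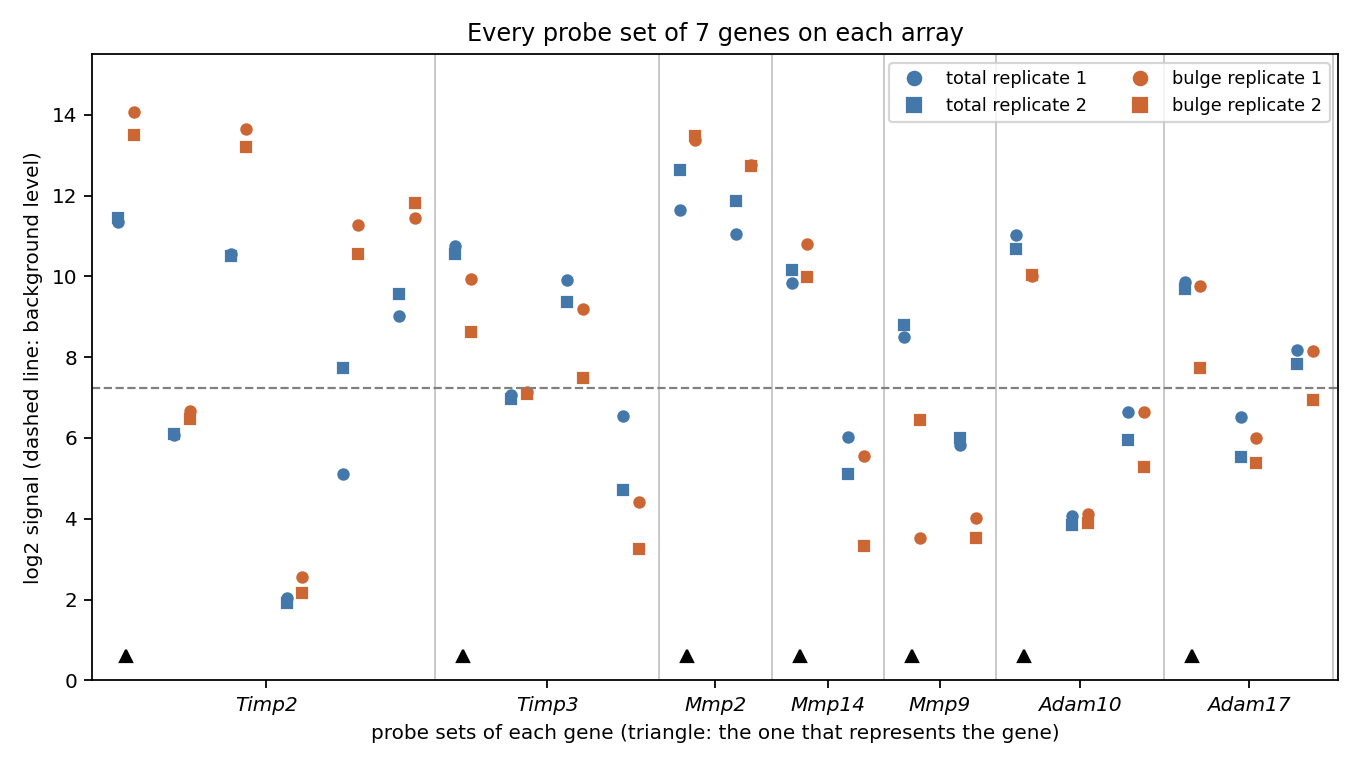
Log2 signal (y axis) of every probe set (x axis, grouped by gene) of Timp2, Timp3, Mmp2, Mmp14, Mmp9, Adam10 and Adam17 on each array; blue is total, orange is bulge, circles are replicate 1, squares replicate 2, triangles mark the representing probe set and the dashed line is the background level. Bulge points lie above total points on all 6 Timp2 and both Mmp2 probe sets and below them on both Mmp9 probe sets.

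Dermal fibroblasts also express Pcolce2, Timp2, Mmp2, Col5a2 and Col1a2. Of 12 measured markers of fibroblasts and dermal papilla, 8 were below background on all 4 arrays, among them Pdgfra (52.2 and 34.0 against 9.48 and 14.6), Dpt, Lum and Col3a1 (42.7 and 66.7 against 22.4 and 41.6). Fbln2, a fibulin, was higher in the bulge group without overlap, with 96.7 and 86.2 against 317 and 294, and Col1a1 was above background on bulge replicate 1 only. The summed signal of the list was 1675 and 2023 in the total sort and 1301 and 1058 in the bulge sort. Much of the total groups' sum came from Thy1, with 877 and 1444 on those arrays, a gene that T cells also express. The lower bulge sum is therefore no measure of fibroblast RNA alone. The median difference of the list was 0.20, with 1 marker higher and 3 lower without overlap (33.3%, against 38.5% of all genes). Endothelial markers summed to 864 and 577 against 946 and 957, with 5 of 8 below background on all 4 arrays. Melanocyte markers summed to 2893 and 2111 against 7077 and 3328, with Mitf higher and the other 6 of 7 lower without overlap. The higher bulge sum thus came from Mitf alone, and the median difference of the list was -0.83. The part of these cells in the differences was not tested.

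Mmp9, gelatinase B, was lower in the bulge group. Its signals were 359 and 442 in the total sort and 11.5 and 86.6 in the bulge sort. Both bulge values are below background and the groups did not overlap. It was at least 2.66-fold lower, with a fitted difference of -3.66 ± 0.98 (SE, 95% interval -6.13 to -1.18) and a limma adjusted p of 0.250. Without bulge replicate 1 the fitted difference was -2.20 and without bulge replicate 2 it was -5.12. Its second probe set gave -2.13 at signals that were all below background. Adam8, a protease of leukocytes and activated cells, was lower as well, with 397 and 345 in the total sort and 77.2 and 63.9 in the bulge sort. It was at least 2.47-fold lower, with a fitted difference of -2.40 ± 0.38 (SE, 95% interval -3.36 to -1.43) and a limma adjusted p of 0.108, or 0.0573 with the intensity trend. Neither passed the threshold.

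Markers of leukocytes were lower on the same arrays. Both sorts took cells expressing GFP from a keratinocyte promoter, and several leukocyte markers were above background on both total arrays. The part of leukocytes in the Mmp9 and Adam8 differences was not tested. Of 15 Langerhans cell and macrophage markers, 13 were lower without overlap and 0 higher, with summed signals of 13933 and 15045 on the total arrays against 2006 and 2482 on the bulge arrays. Csf1r, the receptor for colony stimulating factor 1, had 2316 and 4803 against 236 and 300, and the MHC class II gene H2-Aa 4977 and 4184 against 305 and 506. Of 10 T cell markers, 9 were lower without overlap, with sums of 2194 and 3768 against 346 and 461. Over all genes, 20.5% were lower without overlap. The trended fit called 4 Langerhans cell and macrophage markers and 3 T cell markers lower, against 0.524% of all genes. Ptprc, the leukocyte antigen CD45, had 411 and 452 against 41.4 and 30.7. Of 8 neutrophil markers, whose cells store MMP8 and MMP9, 6 were below background on all 4 arrays and 0 were above it on both arrays of a group. Ngp and Mpo, the brightest of them, had overlapping groups. Mmp8, neutrophil collagenase, and Mmp12 were below background on all 4 arrays.

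**Figure D4:**
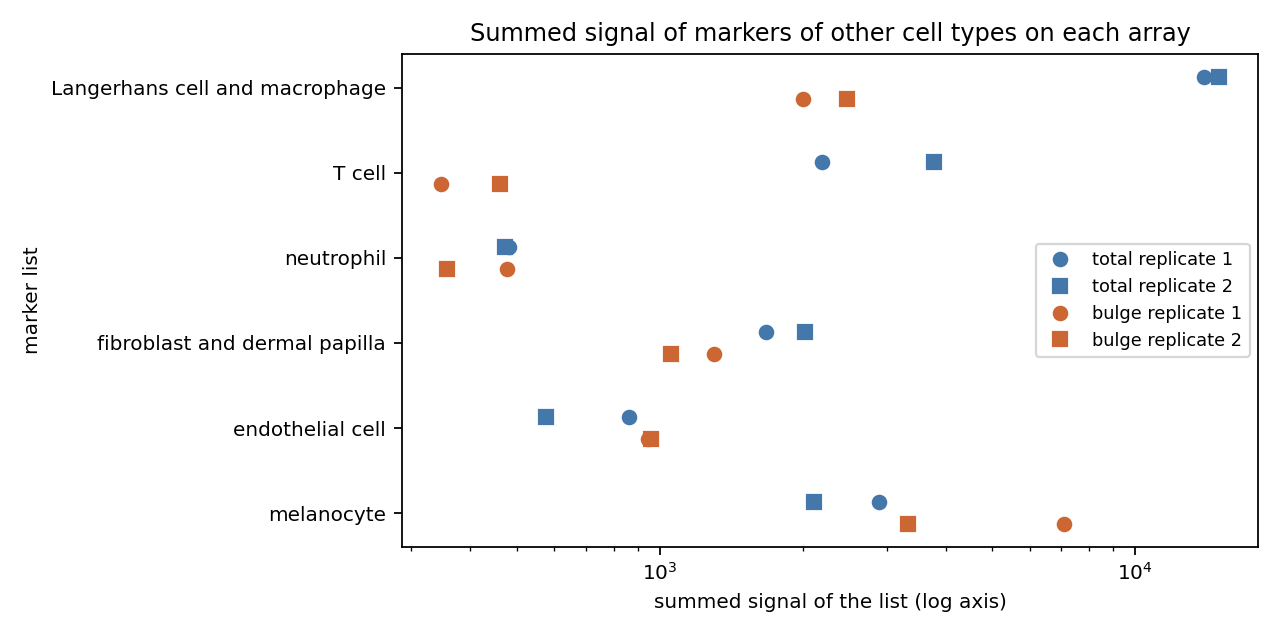
Summed signal (x axis, log scale) of 6 lists of markers of cells other than keratinocytes (y axis) on each array; blue is total, orange is bulge, circles are replicate 1 and squares replicate 2. The Langerhans cell and macrophage list sums to 13933 and 15045 for total and to 2006 and 2482 for bulge, and the neutrophil list lies between 356 and 482 on all 4.

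Adam9, Adam10, Adam15 and Adam17 were above background on all 4 arrays. Adam10, which cuts Notch receptors and E-cadherin, had 2096 and 1623 in the total sort and 1032 and 1049 in the bulge sort. The groups did not overlap and the difference was -0.83 ± 0.38 (SE, 95% interval -1.80 to 0.14), with a limma adjusted p of 0.574. Its other probe sets, below background on every array, gave 0.05 and -0.33 with overlapping groups. Adam17, which releases TNF and several EGF family ligands, had 929 and 817 against 865 and 213. Its lower mean rested on bulge replicate 2, and its difference of -1.02 had an interval from -2.87 to 0.82. Without that array the difference was -0.01. Another Adam17 probe set, above background on 3 arrays, gave -0.46, and one below it on every array gave -0.34, both with overlap. Adam9, a sheddase with broad expression, had 2094 and 1555 against 3473 and 1216, where the bulge arrays lay on either side of the total arrays. Adam15 had 432 and 496 against 667 and 562, without overlap, for a difference of 0.40 (95% interval -0.55 to 1.36).

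The remaining Adam genes were near or below background. Adam33 had 224 and 226 in the total sort and 153 and 102 in the bulge sort, without overlap. Bulge replicate 2 was below background, so the fold is bounded at 1.48 or more, beside a fitted difference of -0.85 (95% interval -1.89 to 0.18). Adam4 was above background on all 4 arrays, at 320 and 247 against 228 and 291, and its groups overlapped. The other 18 Adam members include Adam12, above background on 1 bulge array at 151.0, and 17 that were below it on all 4 arrays, among them the sperm genes Adam1a, Adam1b, Adam2 and Adam3.

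Of 36 measured sheddase substrates, 0 rose, 2 fell and the other 34 were not called by the trended limma fit. Over all genes that fit called 0.557% higher and 0.524% lower. Among the substrates 9 were higher and 13 lower without overlap, against 18% and 20.5% of all genes. The 2 that fell were Epgn, an EGF family ligand, from 2475 and 2594 to 329 and 214 (trended adjusted p of 0.0297), and the receptor gene Notch3, from 2530 and 1548 to 280 and 275 (trended adjusted p of 0.0381). The list's median difference was -0.46. App, Sdc4 and Sdc1, the members with the highest mean signal, had differences of 0.39, 0.34 and 0.55. Tspan5, a tetraspanin that carries ADAM10 to the cell surface, had 2613 and 2429 against 1292 and 893, a difference of -1.23 (95% interval -2.25 to -0.21) with a limma adjusted p of 0.356, and Rhbdf1, an iRhom that carries ADAM17 there, had -0.16.

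Of 32 measured regulators and relatives of metalloproteases, 1 rose, 0 fell and the other 31 were not called by the trended fit. Over all genes that fit called 0.557% higher and 0.524% lower. In the list 9 were higher and 4 lower without overlap, together 40.6%, near the 38.5% of all genes. Its median difference was 0.13. Adamtsl4, a secreted protein built like an ADAMTS but without the protease part, rose at least 6.71-fold, from 132 and 108 to 991 and 1024 (trended adjusted p of 0.0297). Mme, the membrane metalloendopeptidase neprilysin, was at least 3.65-fold higher, with 71.4 and 66.6 against 908 and 330, without passing (trended adjusted p of 0.0792). Reck, a membrane-anchored MMP inhibitor, had 7.55 and 3.96 against 56.0 and 64.1, below background on all 4 arrays. Plat, the tissue plasminogen activator, had 589 and 274 against 1305 and 1075, without overlap, for a difference of 1.56 (95% interval 0.27 to 2.85). Cd151 and Cd9, tetraspanins that bind integrins, had differences of 0.40 and 0.44.

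Of 20 measured basement membrane genes that MMPs can cleave, 0 passed in the trended fit, against 1.08% of all genes. In this list 8 were higher and 2 lower without overlap, against 18% and 20.5% of all genes, and the median difference was 0.33. Col17a1, the transmembrane collagen of hemidesmosomes, had 9652 and 12695 against 19233 and 17546, for a difference of 0.73 (95% interval -0.25 to 1.71). Agrn, a heparan sulfate proteoglycan, and Lamb3, a chain of laminin-332, had differences of 1.06 and 1.08. The share of genes without overlap was 50% in this list, 40.6% among regulators, 46.2% among procollagen genes and 61.1% among sheddase substrates, against 38.5% of all genes.

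Among ADAMTS genes, Adamts1, which cuts versican and aggrecan, was the 1 of 7 above background on all 4 arrays. It had 1196 and 588 in the total sort and 1270 and 228 in the bulge sort, where replicate 1 was the higher array of both groups, and its difference of -0.64 had an interval from -2.94 to 1.66. Adamts10 was above background on 1 array of each group, at 173 and 191. The other 5 were below it on all 4 arrays. Adamts4, an aggrecanase, was among these, with 14.4 and 7.12 against 62.0 and 34.7 on the representing probe set, while its other probe set went the other way at -0.77.

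A last pair of MMP genes was higher in the bulge group near the background level. Mmp11, stromelysin 3, had 27.7 and 37.3 in the total sort and 133 and 207 in the bulge sort, above background on 1 bulge array. Its difference was 2.37 ± 0.43 (SE, 95% interval 1.27 to 3.47), with a limma adjusted p of 0.125. Its fold has no bound, because bulge replicate 1 was below background too. Mmp17, a membrane-type MMP anchored by a lipid, had 47.3 and 47.1 against 161 and 91.2, above background on 1 bulge array. Mmp16, Mmp19 and Mmp23 were at or near background, with Mmp23 above it on bulge replicate 2 alone at 205. In all, the 38 members outside the plot of 18 genes had signals from 0.966 to 333 and differences from -2.31 to 2.37, with 32 of them below background on all 4 arrays.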

How the data were processed

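Signals came from 4 Affymetrix arrays, 2 per group, with groups taken from sample titles. Amplification started from 200 ng RNA with an oligo-dT T7 primer, per the labels' protocols. The deposited values are probe set intensity on a linear scale with a mean of 500.0 per array after trimming 2% at each end. GCOS, RMA, affy 1.36 and R 2.15.1 appear in the submitters' processing notes; which of them made the values is not given in the sources used here. The log2 of the deposited intensity entered a two-sided limma test (version 3.58.1, in R 4.3.3, lmFit, then eBayes) with group as the only term. The fit was also run on simulated arrays, drawn independently and with the same spread in both groups. Those arrays lacked the replicate correlation and unequal spread of these data, so the run does not test the fit under them. Of 22690 probe sets, 64 were controls, 20380 had 1 symbol, 691 several and 1555 none. Symbols were updated by Entrez ID from RefSeq (GRCm38.p6). A probe set shared by Adam1a and Mapkapk5 was left out.

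Where a group lies below background, a fold is only a bound. The bound is the brighter group's mean over the dimmer group's mean, with each dim array raised to the background level, and is also given where 1 of the dimmer arrays was below it. It carries no sampling error. No bound is given where an array of the brighter group was below background as well. Named were members called in either fit, members above background on both arrays of a group, and all Timp and Pcolce genes. From lists of related genes, called genes and the 3 of highest mean signal were named. Mmp3, Mmp8, Mmp11, Mmp12, Mmp13, Mmp16, Mmp17, Mmp19, Mmp23, Adam12, Adamts4, Adamts10, Bmp1, Tll1, Tll2, Col1a1, Col1a2, Tspan5, Mme, Reck, Plat and the single markers were named after their values were seen. The members, lists and motifs were chosen with earlier results of these data known. The alternatives were an intensity trend, array centring, quantile normalization, a filter on dim genes, log2 of signal plus 32, the mean over probe sets, a replicate block, other background percentiles and each array left out.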

Additional observations from a re-analysis of the deposited data

How the results depend on the processing

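Limma called 0 members and 0 genes with all arrays, under median centring, quantile normalization, the mean over probe sets or a replicate block, and without any 1 array. The trended fit called 69 genes higher and 65 lower, with 1 member higher (Pcolce2) and 0 lower. A filter that kept 7249 genes called 104 higher and 118 lower, with 3 members higher (Pcolce2, Timp2, Mmp11) and 1 lower (Adam8), of which Pcolce2, Mmp11 and Adam8 passed the filter only through their brighter group. Log2 of signal plus 32 called 18 higher and 19 lower, with 1 member higher (Pcolce2) and 0 lower. The replicate numbers are not tied to animals or days by the labels and give only 2 pairs, so they were treated as names, although replicate differences correlated between groups (r = 0.579 across 7249 genes, which are not independent replicates). With the replicate block and the trend, 467 genes were called higher and 450 lower, with 3 members higher (Pcolce2, Timp2, Mmp11) and 4 lower (Adam8, Mmp3, Mmp9, Timp3). In a setting added after seeing the data, the trended fit without 1 array called 0 to 171 genes higher and 0 to 217 lower, with 0 to 2 members higher and 0 to 4 lower, and it was 0 without either total array, where the spread comes from the bulge pair alone. Members without overlap, 8 higher and 11 lower, numbered 14 higher under quantile normalization, 5 higher and 6 lower under the filter, and 11 to 23 higher and 13 to 28 lower without 1 array. Mmp14 turned to -0.36 as the mean over probe sets, which includes a probe set below background. Without 1 array, log2 differences ran from -0.31 to 0.061 for Adam4, -0.57 to 0.94 for Adam9, -1.88 to 0.60 for Adamts1, -0.011 to 0.80 for Mmp14, -0.073 to 0.46 for Mmp24, -0.77 to 1.81 for Timp1 and -0.50 to 0.33 for Timp4. The other 11 of the 18 members tested this way kept their direction under every alternative run. With the background at the 90th or 99th percentile, 19 or 14 members were above it in a group and the Pcolce2 bound was 18.9 or 11.6. With 2 arrays a group, precision is limited by their number and, for 34 members, by signal below background.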
